A study of Mus musculus with 2 samples.

Results

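The genes described here are 10 ligands, receptors, inhibitors and response genes of the bone morphogenetic protein (BMP) pathway: Bmp4, Bmp5, Bmp7, Bmpr1a, Bmpr2, Bambi, Smad6, Smad7, Id1 and Id3. Members were taken from probe sets annotated with exactly 1 symbol, using the brightest over both arrays. All 10 were found, among 19938 genes read in this way, and each had 1 such probe set. Lungs of mouse embryos at E13.5, while the airway tree is branching, were compared between an Etv4;5 knockout group and a wild type group. Etv4 and Etv5 are ETS transcription factors that respond to fibroblast growth factor in the distal lung epithelium. RNA of 3 samples per group was combined in equal amounts before hybridisation to Affymetrix arrays, which leaves 1 Etv4;5 knockout array and 1 wild type array. The sample title calls the knockout CKO and its description calls it DKO. The Cre line, the deleted part of each gene and the cells in which it was deleted are not given in the sources used here. No spread between samples can be estimated from 2 pools, so no p-value is given and every difference compares these pools only. Values are the deposited ones, read as log2 from their range, and differences are knockout minus wild type.

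BMP ligands are secreted dimers that bring type I receptors such as Bmpr1a and the type II receptor Bmpr2 together. The activated type I receptor phosphorylates Smad1, Smad5 and Smad9, which enter the nucleus with Smad4 and turn on targets that include the Id genes and the inhibitory Smads, which feed back on the pathway. In the embryonic mouse lung Bmp4 is known from the distal bud tips, where it restrains the outgrowth that Fgf10 drives.

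Both pools carried the lung programme and differed in several marker lists. All 8 lung epithelium markers counted as measured, meaning that the brighter of the 2 values reached the median of its array, and Nkx2-1, the factor that defines lung epithelium, was at 10.70 in the knockout pool and 10.58 in the wild type pool. Of 4 liver and 4 heart muscle markers, 1 each was measured. Epithelial markers ran from 8.73 to 12.15 in knockout and from 8.63 to 12.07 in wild type. In knockout 7 of 8 were higher (median difference 0.11) and Sftpc was lower (-1.12). Mesenchyme markers were lower in 6 of 7 measured (median -0.04), smooth muscle markers in 7 of 7 (-0.22), cartilage markers in 3 of 3 (-0.32), erythroid markers in 4 of 4 (-0.24) and leukocyte markers in 3 of 4 (-0.13), where 47.0% of all measured genes were lower. Of 5 listed cartilage markers 3 were measured, so that median was the value of 1 gene, Sox9. Sox9 was the brightest of the list, at 10.53 in knockout and 10.84 in wild type. The median is therefore not read here as a change in cartilage. Another of the 3, Cnmd, was under the array median in knockout (7.37). The measured mesenchyme marker that was higher was Fgf10 (0.40). Mesothelium markers were lower in 1 of 4 (median 0.03). Endothelium markers were lower in 5 of 7 (-0.016), but only in 3 of 7 (0.0017) once the medians of both arrays were set equal, and in 4 of 7 after quantile or loess scaling. The targeted genes were lower in knockout, Etv4 at 6.96 against 7.59 and Etv5 at 11.28 against 11.51 in wild type. Both Etv4 values lay under the array medians, and probe sets that miss the deletion could not check the labels. The pools also differed in sex-linked RNA, with Xist at 5.74 in knockout and 12.34 in wild type. RNA from the Y chromosome was higher in knockout but well above the array median in both pools. Kdm5d read 9.58 in knockout and 9.05 in wild type, Eif2s3y 10.44 and 9.90, and Uty 9.64 and 8.99. The wild type pool thus carried Xist together with Y chromosome RNA, and does not read as a pool of females only. Fewer cells of a type and less RNA per cell cannot be told apart in whole lung, and the part of any of these differences in the values below was not tested.

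Promoter windows of the members were searched for ETS sites, which the factors encoded by the deleted genes bind. They were also searched for a GC-rich string, because BMP-activated Smads bind GC-rich sites. Whether a match bears on the array values was not tested. RefSeq windows of GRCm38.p6, from 250 bases before to 50 bases after an annotated gene start, were matched by symbol for Bmp4, Bmp5, Bmpr1a, Bmpr2, Smad6 and Id3. An ETS motif, CCGGAAG on either strand, was present in 1 of these 6 windows, against 8.86% of all 32851 windows. The palindrome GGCGCC, a letter string bound by BMP Smads, was present in 2 of the 6, against 11.9% of all windows. The windows that held a match are printed on the strand of the gene, with the matched letters in capitals. Bmp4 held the ETS motif as its reverse complement, beginning 96 bases before the start, in the window chr14:46390620-46390919 on the minus strand. Bmpr1a held GGCGCC beginning 198 bases before the start, in chr14:34502497-34502796 on the minus strand. Bmpr2 held it 105 bases before the start, in chr1:59764029-59764328 on the plus strand.
Bmp4: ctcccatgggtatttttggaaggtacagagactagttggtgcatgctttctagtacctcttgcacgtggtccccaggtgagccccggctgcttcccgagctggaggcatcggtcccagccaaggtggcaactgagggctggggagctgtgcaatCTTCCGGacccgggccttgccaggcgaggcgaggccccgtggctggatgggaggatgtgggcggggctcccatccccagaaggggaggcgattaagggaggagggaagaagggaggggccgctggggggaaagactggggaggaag
Bmpr1a: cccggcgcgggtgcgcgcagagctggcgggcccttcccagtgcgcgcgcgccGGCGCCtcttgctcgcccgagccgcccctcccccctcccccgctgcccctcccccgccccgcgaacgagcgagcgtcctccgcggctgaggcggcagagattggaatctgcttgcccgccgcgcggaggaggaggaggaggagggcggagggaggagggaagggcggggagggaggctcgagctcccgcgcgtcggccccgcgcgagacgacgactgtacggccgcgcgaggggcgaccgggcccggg
Bmpr2: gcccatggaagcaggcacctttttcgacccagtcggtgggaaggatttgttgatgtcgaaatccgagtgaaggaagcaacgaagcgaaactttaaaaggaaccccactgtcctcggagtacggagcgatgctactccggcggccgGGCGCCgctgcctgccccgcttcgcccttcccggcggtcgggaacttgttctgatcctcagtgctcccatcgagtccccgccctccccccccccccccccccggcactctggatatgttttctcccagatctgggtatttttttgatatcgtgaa
No printed window held both motifs. A match describes letters in a window and is not a measured binding site.

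The BMP pathway members stood at nearly the same level in both pools. None of the 10 differed by 1.2-fold or more (0.26 on the log2 scale) in either direction, where 1.39% of the 11045 measured genes lay past that fold upwards and 1.53% downwards in knockout. At 1.1-fold the members' count was also 0, against 5.05% of measured genes upwards and 7.5% downwards. At 1.5-fold (0.172% and 0.163%) and 2-fold (0.0543% and 0.0362%) it was 0 as well. With 10 genes, a count of 0 is near what these shares give and is not a result about the members. All 10 were measured, with values from 9.13 to 11.63 in knockout and from 9.19 to 11.63 in wild type. The largest difference of a member was 0.07, that of Bmp5, which is 1.049-fold, and 68.4% of measured genes lay within that size.

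**Figure D1:**
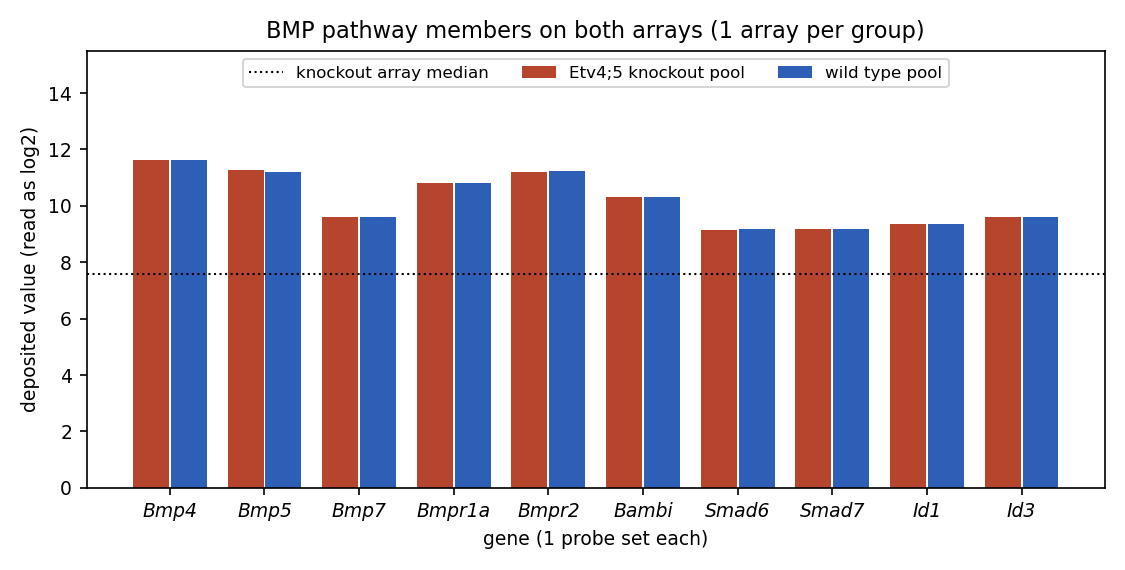
Deposited values (read as log2) of the 10 BMP pathway genes, with the Etv4;5 knockout pool in red on the left and the wild type pool in blue on the right of each pair, and the knockout array median of 7.58 as a dotted line. Each bar is 1 array with no replicates, every bar stands above the line, and the bars of a pair differ by at most 0.07.

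Among the ligands, Bmp4 was exactly equal on both arrays. It read 11.63 in the knockout pool and 11.63 in the wild type pool, as 27.3% of measured genes were exactly equal. Under the 3 other scalings its difference was 0.0146 to 0.0179. Whether the ETS match in its window bears on this value was not tested. Bmp5, which in the embryonic mouse lung is known from the mesenchyme, read 11.26 in knockout and 11.19 in wild type. Its difference of 0.07 was the highest of the members, and 31.6% of measured genes had a larger difference in size. Bmp7, known from the lung endoderm and close in sequence to Bmp5, read 9.61 in knockout and 9.62 in wild type, a difference of -0.0087 that was above 0 under 3 other scalings. The deposited values of the ligands therefore gave 1 higher, 1 lower and 1 equal gene. Beside them, epithelial markers were mostly higher, except Sftpc (-1.12). Mesenchyme markers were mostly lower by a small median (-0.04), except Fgf10 (0.40).

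Both receptors had slightly lower deposited values in the knockout pool, Bmpr1a only as deposited and not under 3 other scalings. Bmpr2, the type II receptor whose loss underlies heritable pulmonary arterial hypertension in humans, was at 11.18 in knockout and 11.25 in wild type. Its difference of -0.07 was the lowest of the members, and 31.8% of measured genes differed by more in size. Bmpr1a, the type I receptor through which lung epithelium receives Bmp4, was at 10.80 in knockout and 10.82 in wild type, a difference of -0.016. Bambi, a membrane protein that resembles a type I receptor but lacks the kinase domain and so dampens signalling, was at 10.33 in knockout and 10.31 in wild type. The difference of 0.02 for Bambi was the second highest of the members.

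As deposited, response genes inside the cell were equal or slightly lower. Smad6, the inhibitory Smad that acts mainly on BMP signals, was at 9.13 in knockout and 9.19 in wild type, a difference of -0.06. Smad7, which blocks both BMP and TGF-beta receptors, was at 9.17 in knockout and 9.19 in wild type, a difference of -0.019. Both inhibitory Smads were thus below their wild type values as deposited, although Smad7 was above after quantile scaling. Id1 and Id3 encode helix-loop-helix proteins that lack a DNA-binding region and hold back other factors, and they are the most used readouts of BMP signalling. Id1 read 9.34 in knockout and 9.34 in wild type. Id3 read 9.60 in knockout and 9.60 in wild type. Both were exactly equal on the arrays, as Bmp4 was. Endothelium, where Id1, Id3, Smad6 and Bmpr2 are known to be active, had markers whose differences ran from -0.15 to 0.

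As deposited, 2 members were higher, 5 lower and 3 exactly equal in the knockout pool. Among measured genes 25.7% were higher, 47.0% lower and 27.3% exactly equal, so the members divided much as the array did. With equal medians the members split into 7 higher and 3 lower, and the measured genes into 60.7% higher and 39.3% lower. The median difference of the members was -0.0044, against 0 for all measured genes. Their median absolute difference was 0.0175, against 0.0326 for all measured genes. Why so many values were identical on both arrays is not given in the sources used here.

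**Figure D2:**
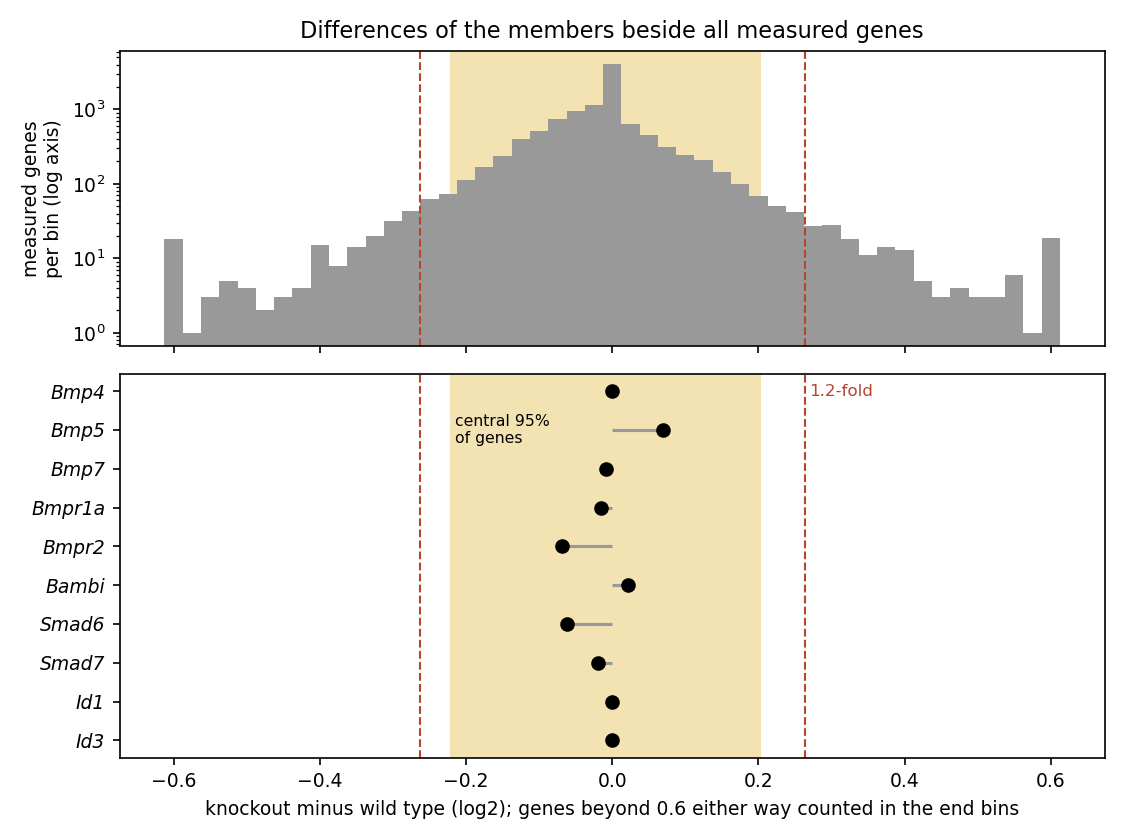
Top, number of measured genes (log axis) per bin of the difference, knockout minus wild type in log2 units; bottom, the same difference for each of the 10 genes. The shaded band from -0.221 to 0.202 holds the central 95% of measured genes and the dashed lines mark 1.2-fold; all 10 points lie inside the band, between -0.07 and 0.07.

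The size of these differences can be set against the disagreement between probe sets. With 1 probe set per member, none could be compared with another probe set of the same gene. Among the 618 measured genes that had 2, the differences from both probe sets were apart by a median of 0.043, with a 90th percentile of 0.184. This gap lies between probe sets on the same 2 arrays and does not stand for the spread between embryos. Bmp5, Bmpr2 and Smad6 exceeded the median gap and 0 members exceeded the 90th percentile. The other 7 members had differences smaller than the median gap.

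Scaling decided the sign of the small differences. As deposited, the median of the knockout array was 7.58 and that of the wild type array 7.60, and setting the medians equal adds 0.017 to every difference. Bmp7 was then at 0.0087 and Bmpr1a at 0.0018, and both were also above 0 after quantile and loess scaling. Smad7 was at -0.002 with equal medians, 0.0017 after quantile scaling and -0.0012 after loess scaling. Bmp4, Id1 and Id3 were between 0.0146 and 0.0276 under the same 3 scalings. Bmp5 and Bambi were higher, and Bmpr2 and Smad6 lower, as deposited and under all 3. Since all 3 scalings moved every member upwards, Bmp5 and Bambi could not change sign, and their sign was not checked by them. The deposited difference of Bambi, 0.02, was also smaller than the median probe set gap of 0.043. For the other 6 members the deposited values carry no direction.

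**Figure D3:**
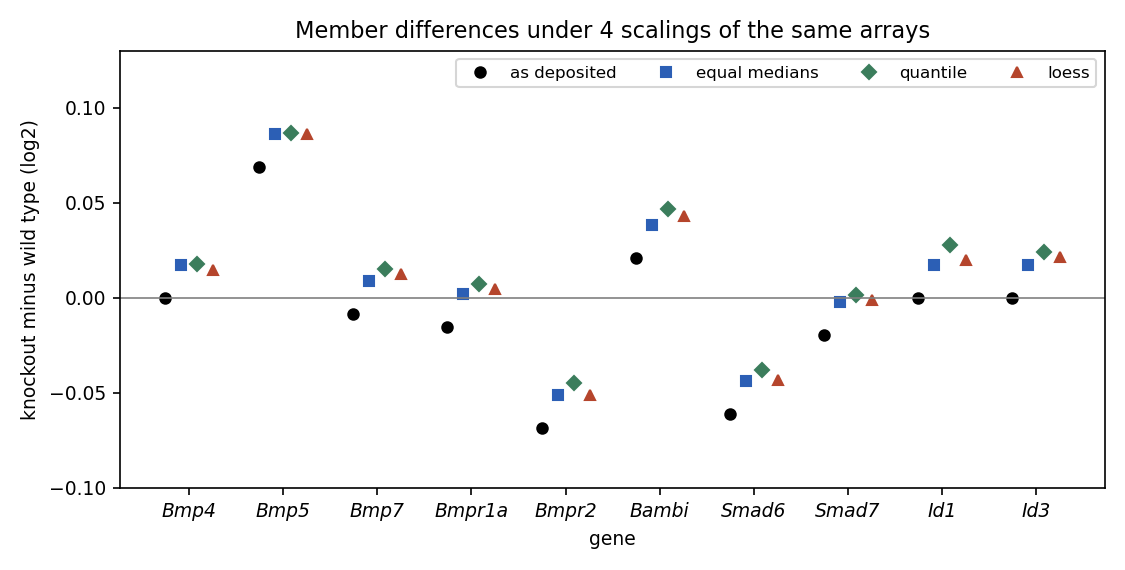
Difference, knockout minus wild type in log2 units, for each of the 10 genes as deposited (black circles) and after equal medians, quantile and loess scaling of the same arrays. Bmp5 and Bambi stay above 0 and Bmpr2 and Smad6 below 0 under all 4, and the other 6 genes touch or cross 0.

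The rest of the BMP pathway was read from a list of 65 further genes, of which 63 were matched and 41 measured. Of the 41, 12 were higher, 15 lower and 14 exactly equal, with a median of 0. Under the 3 other scalings this median was above 0, as that of all measured genes was. Past 1.2-fold lay 0 higher genes and 1 lower gene, against 1.39% and 1.53% of measured genes. The lower gene was Id2, another Id family gene, which is expressed in the distal tip progenitors of mouse lung. Id2 was at 12.17 in knockout and 12.47 in wild type, a difference of -0.31 (1.236-fold), and 1.88% of measured genes differed by more in size. Id4 was at 8.47 in knockout and 8.53 in wild type, a difference of -0.06. Id1 and Id3 were equal, as given above. With 1 gene of 41 past the fold, near the background share, Id2 is described here because it passed and is not a result about the Id family. The difference of Id2 lay between -0.31 and -0.29 under 7 other settings. Of the lung epithelium markers, 7 of 8 were higher in knockout and Sftpc, the surfactant gene of the distal epithelium, was lower (-1.12). Their part in the value of Id2 was not tested.

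The Id2 window, chr12:25096043-25096342 on the minus strand of GRCm38.p6, is shown because Id2 had the largest difference on the BMP lists used here. The co-receptor gene Tgfbr3, placed on the TGF-beta list below, differed by more (-0.64). It held no CCGGAAG and 1 GGCGCC, beginning 231 bases before the start and printed in capitals.
Id2: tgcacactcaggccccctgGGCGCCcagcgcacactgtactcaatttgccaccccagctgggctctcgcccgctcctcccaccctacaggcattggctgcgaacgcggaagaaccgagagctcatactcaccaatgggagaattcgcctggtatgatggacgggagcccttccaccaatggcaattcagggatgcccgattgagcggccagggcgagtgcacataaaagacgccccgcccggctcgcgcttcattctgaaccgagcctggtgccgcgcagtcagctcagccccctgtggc
Over the further pathway genes, 1 of 54 windows from 47 genes held the ETS motif (1.85%, against 8.86% of all windows) and 16 held GGCGCC (29.6%, against 11.9%). These shares were not tested, and some genes have several windows. The window with the ETS motif belonged to Acvr2a, an activin and BMP type II receptor that was exactly equal on both arrays, at 9.66 in knockout and 9.66 in wild type. Both genes with an ETS match, Bmp4 and Acvr2a, had exactly equal values, as 27.3% of all measured genes did. Any link of the match to these values was not tested.

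By role, the further ligands had a median of 0 over 5 measured genes. Bmp2, an early acting ligand related to Bmp4, was at 7.66 in knockout and, below the array median, 7.56 in wild type (0.10). Bmp3, which opposes other BMPs, was at 8.40 in knockout and 8.48 in wild type (-0.08). Receptors and co-receptors had a median of -0.0092 over 8 measured genes, with 1 higher and 5 lower as deposited, but 5 higher and 3 lower under each of the 3 other scalings (medians 0.0019 to 0.0134), so the group carries no direction. The largest difference was that of Bmpr1b, another BMP type I receptor, at 8.80 in knockout and 8.65 in wild type (0.15). Eng, an endothelial co-receptor, was at 10.55 in knockout and 10.62 in wild type (-0.07). By their brightest probe sets, Smads and intracellular regulators lay closest together, with 10 of 10 measured and a range of -0.03 to 0.04. Their median of -0.0068 was above 0 under the 3 other scalings (0.0106 to 0.0157). Smurf2 differed by -0.02 in its brightest probe set but by -0.13 in a dimmer one, outside that range. Among the brightest probe sets Smad9, a receptor-activated Smad, marked the low end, at 8.89 in knockout and 8.93 in wild type. Ski, a corepressor of Smads, marked the high end, at 10.29 in knockout and 10.25 in wild type.

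Extracellular antagonists and proteases had 6 higher, 1 lower and 5 equal of 12 measured, with a median of 0.0058, where 25.7% of all measured genes were higher. Under each of the 3 other scalings 11 were higher and 1 lower, as the 5 equal genes moved above 0. Of all measured genes, 60.7% were then higher with equal medians, 62.6% after quantile and 55.9% after loess scaling. Fst, which encodes the activin and BMP antagonist follistatin, was at 7.79 in knockout and 7.56 in wild type, a difference of 0.22. Its wild type value lay below the array median, so that difference rests on a dim signal. Htra1, a secreted protease reported to bind TGF-beta family ligands, was at 8.14 in knockout and 7.93 in wild type, a difference of 0.21. Both differences were under 1.2-fold and larger than that of any of the 10 members. The other response genes had a median of 0 over 6 measured genes, Id2 included.

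Genes of neighbouring pathways were set beside the members. TGF-beta ligands, receptors, Smads and responders had 10 of 15 measured genes lower and 2 higher, with a median of -0.08 and a median absolute difference of 0.1105 (0.0326 over all measured genes, of which 47.0% were lower). The gene past 1.2-fold, 1 of 15 where 1.53% of measured genes were that much lower, was Tgfbr3, which encodes the co-receptor betaglycan. Tgfbr3 was at 8.82 in knockout and 9.46 in wild type, a difference of -0.64. It is described because it passed and is not a result about the list. Hedgehog genes had 10 of 12 measured lower and 1 higher, also with a median of -0.08, and 4 of 12 were past 1.2-fold downwards, against 1.53% of measured genes. The BMP members had a median absolute difference of 0.0175 beside these. The members and lists were chosen with earlier results of these data known, so this contrast is only a description. No test of the difference between lists can be made with 1 array per group, and the part of the lower smooth muscle and mesenchyme markers in these lists was not tested. The Hedgehog and mesenchyme lists share Foxf1 (-0.40), 1 of the 4 Hedgehog genes past 1.2-fold, so they are not separate readings.

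**Figure D4:**
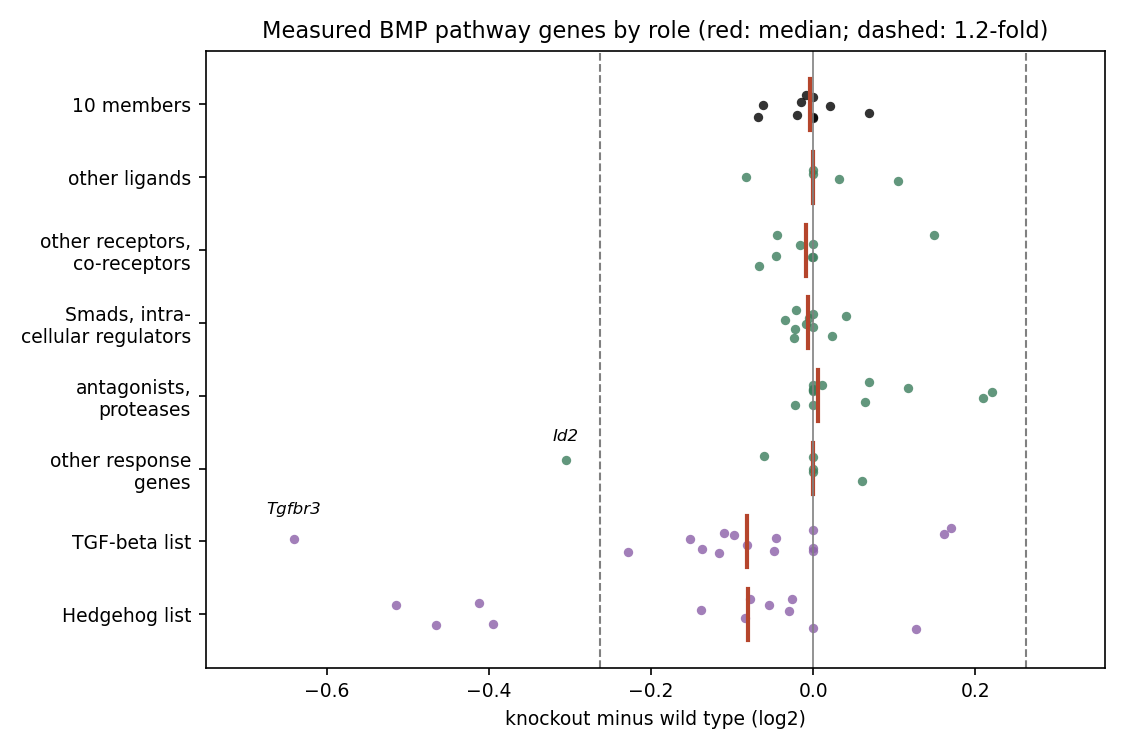
Difference, knockout minus wild type in log2 units, for the 10 genes (black), 41 further measured BMP pathway genes by role (green) and the measured TGF-beta and Hedgehog genes (purple), with red bars at the medians and dashed lines at 1.2-fold. Points are single genes spread vertically for legibility. Among the measured genes on the BMP lists used here Id2 alone lies past a dashed line, and the TGF-beta and Hedgehog medians are both at -0.08.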

How the data were processed

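Column-purified total RNA of embryonic mouse lung was biotin-labelled for Affymetrix arrays, per the labels' protocols. The deposited values, 35557 probe sets on each array, had been processed by the authors and were read here as log2 because they ran from 2.69 to 14.45 in knockout and from 2.72 to 14.44 in wild type. Log base, summary method and normalization are not given in the sources used here. No depth applies to arrays, and precision is limited by their number, 1 per group, so no test was run.

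In the platform annotation 21789 probe sets carried 1 symbol, 1621 carried several and 12147 carried none. Each gene took its brightest 1-symbol probe set by mean, and 11045 genes whose brighter value reached its array median counted as measured. Values had no floor or offset. Of 170 listed genes 164 were matched, 2 of them through a RefSeq synonym. The alternatives tried were loess (span 0.3), quantile and equal-median scaling, averaging of probe sets, filters at none or the 75th percentile, values floored at the 25th percentile, and folds of 1.1, 1.5 and 2. The members and lists were chosen with earlier results of these data known. Genes named outside the 10 were those of each role group or of the TGF-beta list past 1.2-fold, or otherwise the 2 with the largest size. Id4, Acvr2a, Nkx2-1, Sftpc and Xist were named as family member, motif holder, tissue checks and sex check. Smurf2, Foxf1, Fgf10, Sox9, Cnmd, Uty, Eif2s3y and Kdm5d were named after their values were seen. The counting steps were tested on simulated data. RefSeq promoter windows on chromosome 18 were left out for the listed genes. The motif shares over all 32851 windows were taken without that exclusion. Python 3.11.15, numpy 2.4.6, pandas 2.3.3, statsmodels 0.14.6 and matplotlib 3.10.9 were used.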

Additional observations from a re-analysis of the deposited data

How the results depend on the processing

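Leaving out an array was not possible. No paired analysis was possible because each group has a single array and no test. The counts of members at least 1.2-fold higher or lower were 0 under every planned scaling, filter, floor, probe set choice and fold (1.1, 1.5 and 2). For the 41 further BMP genes 3 genes were higher at 1.1-fold, while 0 were lower at 1.5-fold and 0 at 2-fold, which follows from the threshold. The median of the members lay between -0.0044 and 0.0165 over 7 alternatives and that of the further genes between 0 and 0.0207. The filter at the 75th percentile removed Smad6 and Smad7. Alternatives for the named genes outside the 10, the marker lists, the role groups and the TGF-beta and Hedgehog lists were added after seeing the data. The 2 list medians lay between -0.08 and -0.06, and Tgfbr3 between -0.64 and -0.62 (7 alternatives each). Low signals limit Fst, Bmp2 and the genes that did not count as measured.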

Other observations

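BMP pathway genes too dim to count as measured were 22 of the 63 matched further genes, among them the antagonists Chrd and Grem1. Of these, 9 were higher, 2 lower and 11 exactly equal, and 0 differed by 1.2-fold. Their differences, knockout minus wild type, ran from -0.17 (Tll1, a protease of the tolloid family, at 7.15 in knockout and 7.32 in wild type) to 0.24 (Gdf6, a BMP-type ligand, at 6.65 in knockout and 6.41 in wild type). Tll1, Gdf6, Chrd and Grem1 were named after their values were seen.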
